A study of Mus musculus with 8 samples.

Results

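The genes described here are the integrins, a selection of their ligands and the proteins that switch them on, in mouse haematopoietic stem cells (HSCs) of 2 ages. They are 32 of the 22050 genes with an exon model in the deposited count files, taken by symbol: 18 alpha subunit genes, 8 beta subunit genes, the activators talin-1 (Tln1) and kindlin-3 (Fermt3), the ligands Icam1, Icam2 and Vcam1, and the hyaluronan receptor Cd44. Each library came from 100 HSCs sorted from bone marrow of C57BL/6 mice as CD150+ CD48- EPCR+ Lineage- cells. Pups at postnatal day 5 (P5) gave 4 libraries and mice aged 4 weeks gave 4, with no treatment or engineered allele named for either group. Whether libraries of the same age were made from different animals is not in the labels, so p-values reflect only the spread among these samples, part of which may be technical.

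Integrins are surface receptors made of 1 alpha and 1 beta chain, and a chain generally reaches the surface only with a partner. Talin and kindlin bind the beta chain from inside the cell and switch the pair to a form that holds its ligand. In bone marrow, integrins that bind VCAM-1 and fibronectin help to keep HSCs in place, those with the beta2 chain serve mostly on leukocytes, and alphaIIb-beta3 is the fibrinogen receptor of platelets, also present on many HSCs.

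The libraries held 6142760 to 7470777 exon reads at P5 and 5775130 to 7212446 at 4 weeks. Levels are given in CPM, exon reads scaled to library size. Levels of different genes are compared only as CPM per kb of exon. The gate genes Slamf1 (CD150) and Procr (EPCR) were present in all libraries, at 26.9 to 37.3 and 48.1 to 65.6 CPM at P5, against 32.8 to 42.9 and 47.0 to 64.5 CPM at 4 weeks. Cd48, which the gate leaves out, had reads in all libraries, at 1.71 to 10.0 CPM at P5 and 2.53 to 8.31 CPM at 4 weeks. Of the 8 genes of the gate and HSC list, Fgd5 and Mecom were higher at P5 (log2 fold changes 0.60 and 0.36) and Ly6a was lower (-1.53, adjusted p = 1.49e-05 with edgeR). P5 replicate 2 stood apart in its macrophage genes: its summed level of 9 monocyte and macrophage markers was 487 CPM, while the other P5 libraries had 188 to 229 CPM and the 4-week libraries 180 to 215 CPM. In 4-week replicate 4 the 8 stromal markers summed to 83.8 CPM. The other 4-week libraries had 12.6 to 26.8 CPM and the P5 libraries 12.6 to 32.5 CPM. Cxcl12 had 50.4 CPM in 4-week replicate 4, and at most 0.862 CPM in the other 4-week libraries and 0.136 CPM at P5. Y-linked genes had at most 2 reads in P5 replicates 1 and 3 and 1532 to 2293 reads in the other 6 libraries. In bulk RNA, fewer cells that carry a transcript and less of it per cell cannot be told apart.

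Promoters are shown for 3 of the members that changed, 2 of them higher and 1 lower, so that short motifs of blood-cell transcription factors can be read in them. Itgam and Cd44 were higher at P5, and Itga2b was lower. Each sequence is the 250 bases before a transcript start in the RefSeq promoter table on GRCm38.p6, 5′ to 3′ on the gene's strand. Capitals mark GAGGAA or its reverse complement TTCCTC, the core bound by the myeloid factor PU.1. The windows are chr7:128062390-128062639 on the plus strand for Itgam, chr2:102901666-102901915 on the minus strand for Cd44 and chr11:102469884-102470133 on the minus strand for Itga2b. The Cd44 window reaches 4 bases into the span given for the gene below.
Itgam: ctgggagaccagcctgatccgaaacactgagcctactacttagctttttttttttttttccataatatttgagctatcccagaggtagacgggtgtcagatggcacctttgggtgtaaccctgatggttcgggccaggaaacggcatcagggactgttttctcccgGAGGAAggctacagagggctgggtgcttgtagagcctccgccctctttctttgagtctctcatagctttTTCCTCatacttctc
Cd44: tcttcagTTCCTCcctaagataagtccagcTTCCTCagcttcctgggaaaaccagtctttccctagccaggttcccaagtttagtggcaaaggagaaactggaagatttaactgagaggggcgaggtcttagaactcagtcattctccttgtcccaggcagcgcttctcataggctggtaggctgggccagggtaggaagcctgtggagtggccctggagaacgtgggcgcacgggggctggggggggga
Itga2b: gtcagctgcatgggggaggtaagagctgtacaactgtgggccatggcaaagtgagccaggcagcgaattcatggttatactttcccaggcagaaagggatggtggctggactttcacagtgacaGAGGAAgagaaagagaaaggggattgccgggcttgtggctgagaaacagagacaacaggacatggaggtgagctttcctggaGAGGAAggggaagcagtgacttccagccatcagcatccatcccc
Each of the 3 holds this core 2 times. No other changed member with a listed promoter had 2 copies: Itgb1 had 1, and Itga4 and Itgb7 had 0. Itgav, which did not pass the test, also had 2 copies. How many of all promoters hold 2 copies was not counted, so the copy number is not tied to a changed level. The motif was present in 10 of the 22 members with a promoter in the RefSeq table, and in 23.3% of all 32851 promoters of the same length. For this and the motifs below, a member was counted if any of its listed promoters held the motif. The shares of all promoters are per promoter, so the counts are not alike. Itga3 and Itgb6 held GAGGAA in only 1 of their 2 listed promoters. Of the 6 members with a changed level and a promoter in the table, 4 held it, namely Itgam, Cd44 and Itgb1, which were higher, and Itga2b, which was lower. The RUNX core TGTGGT, searched on both strands, was present in 3 of the 22, including Itga4, against 14% of all promoters. The GATA core AGATAA, also searched on both strands, was present in 2, including Cd44, against 9.99%. A match is a description of the letters and not a binding site.

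Of the 32 genes, 24 had enough reads to be tested. Among them 7 were higher at P5 (Itgal, Itgam, Itgb2, Itga4, Itgb1, Itgb7 and Cd44), 2 were lower at P5 (Itgb3 and Itga2b), and 15 did not pass the test (quasi-likelihood test of edgeR, with p adjusted by Benjamini-Hochberg over all 12235 genes tested and a threshold of 0.05). Across all genes tested, 7.99% were higher at P5 and 8.55% were lower at P5, so 16.5% passed in either direction. The median log2 fold change of P5 over 4 weeks was 0.04 for the 24 members and -0.0042 for all genes tested. P5 and 4-week libraries did not overlap for 10 of the 24, namely the 9 changed genes and Icam2, against 21.2% of all genes. The authors' deposited table of their own test listed a corrected p-value under 0.05 for the same 9 members and for 0 others.

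**Figure D1:**
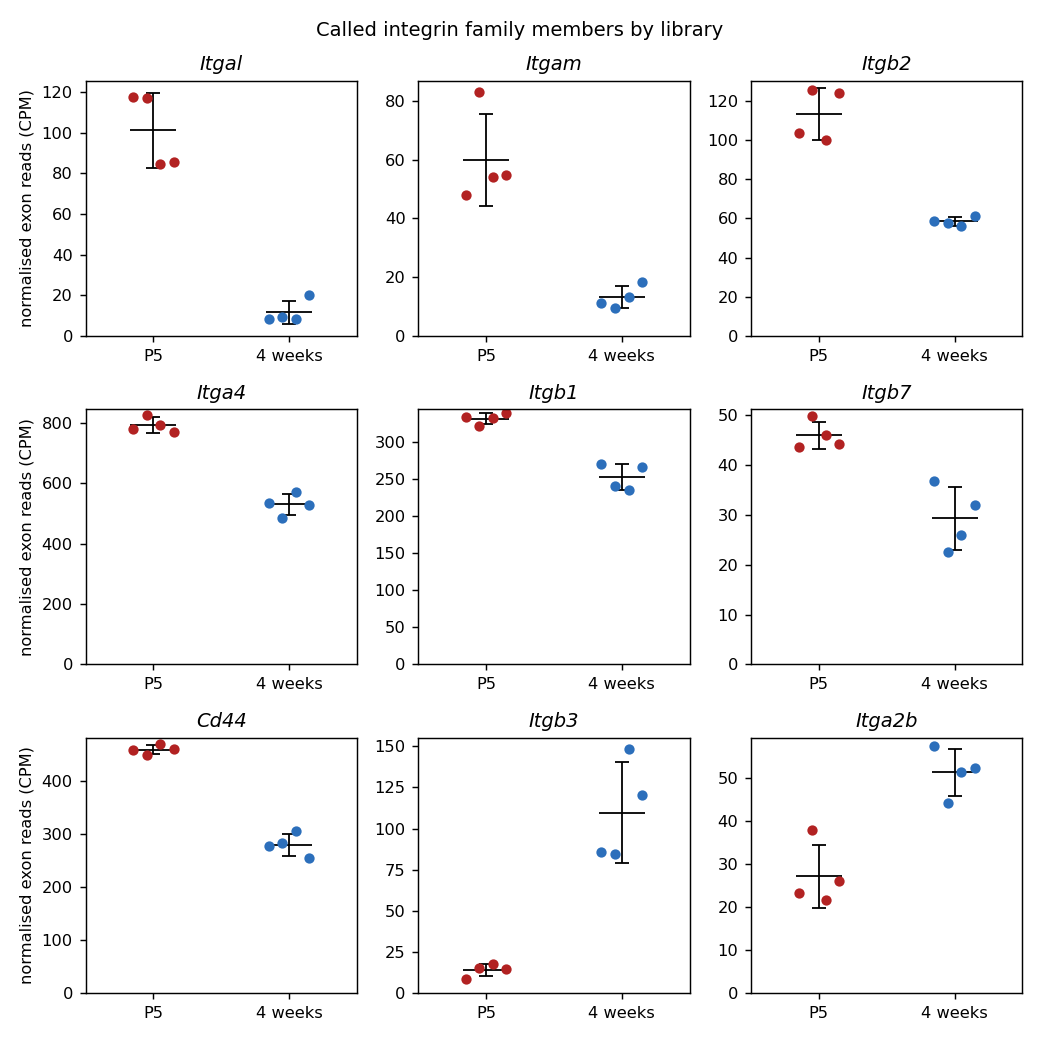
Normalised exon reads (CPM, linear axes from 0) of the 9 members that passed the test, with 1 point for each of the 4 P5 and 4 4-week libraries and a line and bars at the mean and SD. In every one of the 9 panels the points of the 2 ages do not overlap; Itgb3 and Itga2b are lower at P5 and the other 7 are higher.

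The partners of the leukocyte chain beta2 showed the largest increases among the members. Itgal encodes alphaL, which pairs with beta2 to form LFA-1, the receptor for ICAM-1 and ICAM-2. Itgal (chr7:127296139-127335137, GRCm38.p6) had 117, 117, 84.4 and 85.6 CPM in the P5 libraries, against 8.37, 9.31, 8.58 and 20.2 CPM in the 4-week libraries. Every P5 library was above every 4-week library, and 4-week replicate 4 lay apart from the other 4-week libraries. Itgal was 8.57-fold higher at P5 (log2 fold change 3.10, SE 0.249, adjusted p = 3.14e-06 with edgeR). Without 4-week replicate 4 the log2 fold change was 3.53.

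Itgam encodes alphaM, which forms the complement receptor Mac-1 with beta2 and is a classical marker of myeloid cells. Itgam (chr7:128062640-128118491) had 47.99, 83.0, 53.98 and 54.6 CPM at P5, against 11.4, 9.65, 13.1 and 18.3 CPM at 4 weeks. The groups did not overlap, and P5 replicate 2, the library with high macrophage genes, was the highest. The increase was 4.53-fold (log2 fold change 2.18, SE 0.213, adjusted p = 1.44e-05 with edgeR), and without P5 replicate 2 the log2 fold change was 1.98. An annotated gene model of the same strand, Gm49368, shares 3450 exon bases with Itgam, so reads could not be split between them.

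Itgb2 encodes the beta2 chain itself. Itgb2 (chr10:77530329-77565708) had 103.5, 125, 99.9 and 124 CPM at P5, against 58.8, 57.7, 56.0 and 61.4 CPM at 4 weeks. All P5 libraries were higher, by 1.93-fold on average (log2 fold change 0.95, SE 0.0981, adjusted p = 2.17e-05 with edgeR). The other alpha chains that use beta2, Itgax and Itgad, were too low to be tested: Itgax had 0 reads at P5 and 12 at 4 weeks, and Itgad had 5 reads at P5 and 31 at 4 weeks, 30 of them in replicate 1.

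Markers of other blood cells were read beside these 3 genes. The 9 monocyte and macrophage markers all had reads, and 2 of them, Csf1r and Cd68, were higher at P5. Csf1r had 158 CPM in P5 replicate 2, 3.53 to 7.92 CPM in the other P5 libraries and 3.45 to 3.95 CPM at 4 weeks. Cd68 was higher in every P5 library, at 21.0 to 37.8 CPM against 12.1 to 16.4 CPM at 4 weeks (log2 fold change 1.08, adjusted p = 0.00141 with edgeR). The summed level of 9 neutrophil markers was 27.2 to 46.3 CPM at P5 and 27.9 to 36.7 CPM at 4 weeks, with Ctsg at 0 in all libraries and Elane, S100a8 and S100a9 at 0 at P5. S100a8 was lower at P5 (adjusted p = 0.000699), while Mpo and Ltf were higher without overlap: Mpo had 2.59 to 8.39 CPM at P5 and 0.689 to 2.08 CPM at 4 weeks (adjusted p = 0.011), and Ltf had 2.26 to 3.95 CPM at P5 and 0 to 1.38 CPM at 4 weeks (adjusted p = 0.0279). For 7 B-cell markers the sum was 34.1 to 51.7 CPM at P5 and 20.9 to 26.1 CPM at 4 weeks, with Ms4a1 and Pax5 at 0; Cd79b made up most of it and was higher, at 31.9 to 50.8 CPM at P5 and 20.3 to 23.9 CPM at 4 weeks (adjusted p = 0.00158). For 8 T-cell and NK-cell markers it was 5.98 to 12.3 CPM at P5 and 9.48 to 18.8 CPM at 4 weeks, with Cd3e, Cd3g, Ncr1 and Gzma at 0. Among them Nkg7 was lower at P5, at 1.4 to 3.24 CPM against 5.53 to 11.7 CPM at 4 weeks (adjusted p = 0.00121 with edgeR). The 4 multipotent progenitor markers summed to 280.0 to 392 CPM at P5 and 259 to 334 CPM at 4 weeks, and among them Flt3 was higher, at 71.9 to 149 CPM at P5 and 50.5 to 86.4 CPM at 4 weeks (adjusted p = 0.0408). Erythroid genes summed to 612 to 957 CPM at P5 and 132 to 174 CPM at 4 weeks, and endothelial genes to 53.6 to 78.8 CPM at P5 and 39.1 to 52.8 CPM at 4 weeks. Of these, erythroid Hbb-bt and endothelial Cdh5 and Cldn5 were higher at P5 (adjusted p = 1.29e-07, 1.71e-05 and 0.023 with edgeR). The part of other cells in the higher Itgal, Itgam and Itgb2 was not tested; without P5 replicate 2 the log2 fold changes were 3.02, 1.98 and 0.90.

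The chains of VLA-4, a receptor for fibronectin and VCAM-1, and the beta7 chain were also higher at P5, by smaller amounts. Itga4 encodes alpha4, which forms VLA-4 with beta1 and a homing receptor for mucosal tissue with beta7. Itga4 (chr2:79255426-79333114) had 780.2, 826, 794 and 768 CPM at P5, against 536, 486, 569 and 527 CPM at 4 weeks. The lowest P5 library was above the highest 4-week library, and the increase was 1.5-fold (log2 fold change 0.58, SE 0.0716, adjusted p = 0.000104 with edgeR). On the opposite strand, exons of Cerkl share 1124 bases with Itga4, and the libraries do not record strand; Cerkl itself had 11.8 CPM at P5 and 11.6 CPM at 4 weeks.

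Itgb1 encodes beta1, the chain shared by the largest number of alpha partners. Itgb1 (chr8:128685654-128733579) had 334, 322, 332 and 339 CPM at P5, against 270.0, 241, 235 and 266 CPM at 4 weeks. The ages did not overlap, with a 1.31-fold higher mean at P5 (log2 fold change 0.39, SE 0.0716, adjusted p = 0.00215 with edgeR). Itgb7 encodes beta7, the partner of alpha4 and alphaE. Itgb7 (chr15:102215994-102233405) had 43.5, 49.7, 46.1 and 44.3 CPM at P5, against 36.8, 22.6, 25.9 and 31.9 CPM at 4 weeks. It was 1.56-fold higher at P5 (log2 fold change 0.64, SE 0.147, adjusted p = 0.00844 with edgeR).

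Cd44 encodes the main receptor for hyaluronan, which is no integrin but works beside them in adhesion to the marrow matrix. Cd44 (chr2:102811141-102901669) had 457, 449, 470.1 and 459 CPM at P5, against 277, 282, 305 and 255 CPM at 4 weeks. The P5 values lay within a narrow range, all above 4 weeks, and the increase was 1.64-fold (log2 fold change 0.72, SE 0.0725, adjusted p = 1.84e-05 with edgeR). Of all Cd44 reads, 88.8% were listed as intron reads, against 66.8 to 72.5% of the reads of all genes in each library. The Cd44 intron reads did not pass the test (log2 fold change 0.34, adjusted p = 0.14 with edgeR).

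The platelet integrin moved the other way. Itgb3 encodes beta3, the partner of alphaIIb and alphaV. Itgb3 (chr11:104608000-104670476) had 8.59, 15.4, 17.4 and 14.4 CPM at P5, against 85.8, 84.3, 148 and 120.2 CPM at 4 weeks. The highest P5 library was far below the lowest 4-week library: Itgb3 was 7.89-fold lower at P5 (log2 fold change -2.98, SE 0.224, adjusted p = 1.68e-06 with edgeR). Itga2b encodes alphaIIb (CD41), a chain also used as an early marker of blood formation in embryos. Itga2b (chr11:102453297-102469883) had 23.2, 37.8, 21.5 and 26.1 CPM at P5, against 57.4, 44.1, 51.3 and 52.2 CPM at 4 weeks. All P5 libraries were lower, by 1.89-fold (log2 fold change -0.92, SE 0.167, adjusted p = 0.00204 with edgeR).

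Markers of megakaryocytes, the platelet precursors, overlapped between the ages. Their summed level over 7 genes was 80.3 to 104 CPM at P5 and 66.4 to 84.6 CPM at 4 weeks. Gp9, a chain of the platelet receptor for von Willebrand factor, passed the test as higher at P5, with 21.8 to 31.5 CPM at P5 and 6.72 to 16.5 CPM at 4 weeks. Pf4, a platelet chemokine, had 3.00 to 6.06 CPM at P5 and 5.40 to 10.7 CPM at 4 weeks, and did not pass (adjusted p = 0.0987 with edgeR). The part of megakaryocytes in the lower Itgb3 and Itga2b was not tested.

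**Figure D2:**
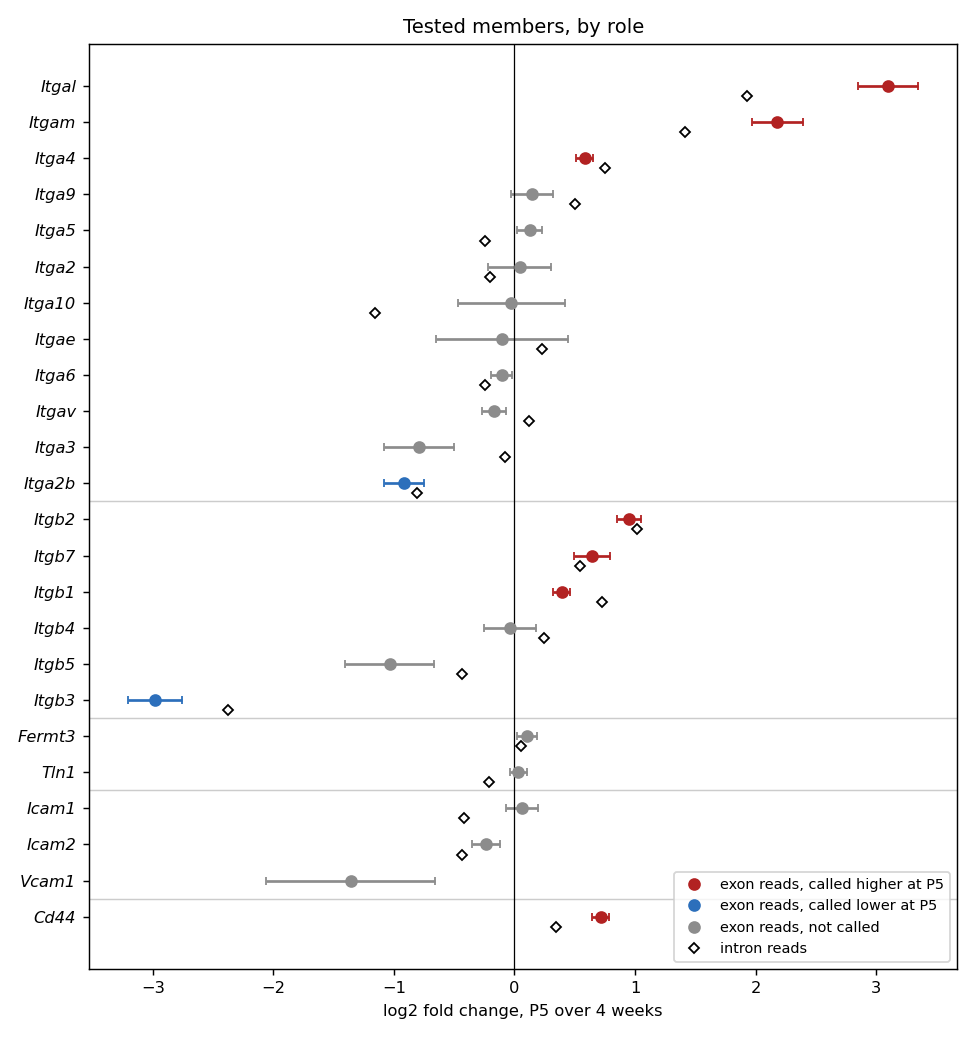
Log2 fold change of P5 over 4 weeks for the 24 members tested, grouped by role, with points and standard errors from exon reads, coloured by whether they passed the test, and open diamonds from intron reads. Itgal, at 3.10, and Itgb3, at -2.98, mark the ends of the range in exon reads, and their intron reads lie on the same sides at 1.93 and -2.37.

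The remaining alpha subunits did not pass the test. Itga6, the laminin-binding chain alpha6, had 170.3, 210.4, 196 and 179.9 CPM at P5, against 196, 193, 226 and 200.2 CPM at 4 weeks, with overlap. Itga5, the fibronectin-binding chain alpha5, averaged 113 CPM at P5 and 104 CPM at 4 weeks (log2 fold change 0.13, adjusted p = 0.468 with edgeR). Itgav, the chain that binds vitronectin and latent TGF-beta, averaged 73.5 ± 7.32 CPM at P5 and 82.6 ± 7.02 CPM at 4 weeks (SD, n = 4 each), a log2 fold change of -0.17 (adjusted p = 0.284 with edgeR). Itga9, alpha9, averaged 46.9 ± 13.8 CPM at P5 and 42.4 ± 4.65 CPM at 4 weeks. Each of these 4 chains overlapped between the ages. Itga3, Itga2, Itga10 and Itgae averaged 3.28 to 8.86 CPM at P5 and 3.42 to 11.2 CPM at 4 weeks; Itga3 came closest to the threshold (log2 fold change -0.79, adjusted p = 0.0816 with edgeR).

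Of the other beta chains, Itgb4, the partner of alpha6 in epithelia, averaged 9.51 CPM at P5 and 9.76 CPM at 4 weeks. Itgb5, an alternative partner of alphaV, had 4.77, 18.2, 7.60 and 6.91 CPM at P5, against 28.6, 11.7, 19.2 and 16.9 CPM at 4 weeks. P5 replicate 2 overlapped the 4-week range and the other P5 libraries did not. With all libraries Itgb5 did not pass (log2 fold change -1.04, adjusted p = 0.0715 with edgeR), but it was lower at P5 in 5 of 21 alternatives. These were all libraries with no filter on low counts (adjusted p = 0.0446), with DESeq2 (0.0316) or with limma-voom (0.0386), and the fits without 4-week replicate 2 (0.0402) or without P5 replicate 2 (log2 fold change -1.58, adjusted p = 0.0026).

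The 8 genes below the filter were Itga1, Itga7, Itga8, Itga11, Itgad, Itgax, Itgb6 and Itgb8. Itgb6 had 26 reads in all at P5 and 26 at 4 weeks, and Itga11 had 8 at P5 and 21 at 4 weeks. Itga1 had 2 reads at P5 and 11 at 4 weeks. Itga7 had 0 at P5 and 10 at 4 weeks, Itga8 had 0 at both ages, and Itgb8 had 0 at P5 and 1 at 4 weeks. A group with 0 reads allows a level of up to 0.11 CPM at P5 and 0.119 CPM at 4 weeks, for counting error only. Most of these chains serve in muscle, epithelium or connective tissue, and no difference in them was detectable at this depth.

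The activators, the most abundant of the members, did not pass the test. Tln1, the talin that links beta chains to actin, had 1530.0, 1487, 1328 and 1458 CPM at P5, against 1429, 1433, 1384 and 1435 CPM at 4 weeks (log2 fold change 0.03, adjusted p = 0.814 with edgeR). Fermt3, the kindlin of blood cells, averaged 307 ± 27.5 CPM at P5 and 286 ± 18.0 CPM at 4 weeks (SD, n = 4 each), a log2 fold change of 0.10 (adjusted p = 0.443 with edgeR). Both genes overlapped between the ages. Per kb of exon, Tln1 was at 163 ± 9.83 CPM at P5 and 160 ± 2.72 CPM at 4 weeks, above every integrin chain at both ages.

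The ligands did not pass either. Icam1, the inducible LFA-1 ligand, averaged 74.4 ± 7.71 CPM at P5 and 71.4 ± 13.8 CPM at 4 weeks (SD, n = 4 each). Icam2, a constitutive LFA-1 ligand, had 28.9, 29.7, 25.1 and 28.8 CPM at P5, against 34.9, 29.8, 34.8 and 33.0 CPM at 4 weeks. All P5 libraries of Icam2 were lower, but by little (log2 fold change -0.24, adjusted p = 0.203 with edgeR); counting intron reads instead gave -0.43 with an adjusted p of 0.0359. Vcam1, the VLA-4 ligand, which HSCs themselves can carry, had 43 reads in all at P5 and 109 at 4 weeks and did not pass (adjusted p = 0.216).

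Compared per kb of exon, the order of the chains differed between the ages. Alpha chains summed to 195 ± 13.6 CPM per kb at P5 and 153 ± 7.92 CPM per kb at 4 weeks (SD, n = 4 each), without overlap. Itga4 was first at both ages, with 41.5% ± 1.84 of the summed alpha level at P5 and 35.2% ± 1.42 at 4 weeks. Itga6 and Itga5 followed in both. Itgal held rank 4 at P5 with 9.57% ± 1.5 and rank 9 at 4 weeks with 1.39% ± 0.647. Itga2b held rank 7 at P5 with 4.02% ± 0.779 and rank 4 at 4 weeks with 9.73% ± 0.681. At P5, Itgam at 9.92 ± 2.60 and Itgav at 9.63 CPM per kb were neighbours that did not differ beyond their spread.

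Beta chains summed to 135 ± 6.07 CPM per kb at P5 and 112 ± 8.01 CPM per kb at 4 weeks. Itgb1 made up 54.0% ± 3.03 of that sum at P5 and 49.7% ± 2.70 at 4 weeks, and Itgb2 28.4% ± 2.17 at P5 and 17.8% ± 1.18 at 4 weeks. Itgb3 was rank 5 of the beta chains at P5, with 1.69% ± 0.45, and rank 3 at 4 weeks, with 16.1% ± 4.26. These shares describe transcripts and not chains on the surface.

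**Figure D3:**
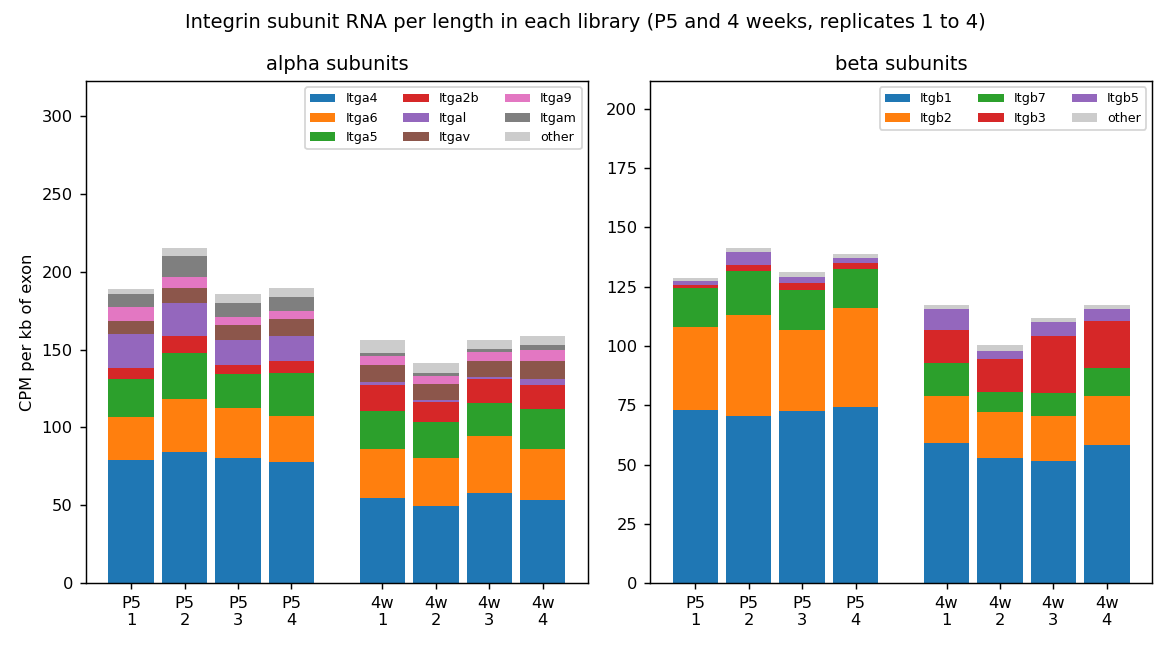
Exon level per kb (CPM per kb) of the alpha chains (left) and beta chains (right), stacked to their sum in each of the 4 P5 and 4 4-week libraries. Itga4 and Itgb1 are the largest blocks in every library, with means of 80.5 and 72.6 CPM per kb at P5 and 53.8 and 55.4 CPM per kb at 4 weeks; Itgal and Itgb2 blocks are larger at P5 and Itgb3 blocks larger at 4 weeks.

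Read as pairs, 16 of the 24 known alpha-beta combinations had both chains tested. Both chains were higher at P5 in 4 (Itga4 with Itgb1, Itga4 with Itgb7, Itgal with Itgb2 and Itgam with Itgb2), both were lower in 1 (Itga2b with Itgb3), and 0 pairs had chains changed in opposite directions. The pair ratio is the alpha level over the beta level, both per kb. It did not overlap between the ages in 7 of the 16 pairs. These pairs reuse a few chains, with Itgb1 in 3 of the 7, Itgb3 in 2 and Itgb2 in 2, each of which had changed, so the 7 are not separate results.

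For LFA-1, the ratio of Itgal to Itgb2 was 0.618, 0.509, 0.46 and 0.376 at P5, against 0.0776, 0.0878, 0.0834 and 0.18 at 4 weeks. The alpha chain thus lay below beta2 in every library and was closer to it at P5, by 2.27 on the log2 scale. For Mac-1, the ratio of Itgam to Itgb2 was 0.227, 0.324, 0.264 and 0.215 at P5, against 0.0946, 0.0817, 0.114 and 0.146 at 4 weeks. It was higher in all P5 libraries, by 1.25 on the log2 scale. Summed, Itgal and Itgam stayed below Itgb2 in CPM per kb at both ages, with means of 18.7 and 9.92 against 38.4 at P5 and of 2.15 and 2.17 against 19.8 at 4 weeks.

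For the platelet integrin the ratio of Itga2b to Itgb3 was 4.79, 4.35, 2.18 and 3.22 at P5, against 1.19, 0.928, 0.615 and 0.77 at 4 weeks. Both chains were lower at P5, and the beta chain more so, by 2.03 on the log2 scale. For the vitronectin receptor the ratio of Itgav to Itgb3 was 6.02, 3.84, 3.32 and 4.59 at P5, against 0.784, 0.732, 0.416 and 0.61 at 4 weeks. At P5 every library had more Itgav than Itgb3, and at 4 weeks every library had less.

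For VLA-4 the ratio of Itga4 to Itgb1 was 1.09, 1.19, 1.11 and 1.05 at P5, against 0.921, 0.936, 1.12 and 0.92 at 4 weeks, with overlap. For Itga4 over Itgb7 it was 4.56 to 4.92 at P5 and 3.99 to 6.03 at 4 weeks, also with overlap. Of the 7 alpha chains that use beta1 and did not pass the test themselves, 3 lay lower relative to it in every P5 library: Itga6 over Itgb1 was 0.376 to 0.482 at P5 and 0.534 to 0.711 at 4 weeks, Itgav over Itgb1 was 0.116 to 0.146 at P5 and 0.186 to 0.207 at 4 weeks, and Itga3 over Itgb1 was 0.0107 to 0.0238 at P5 and 0.0277 to 0.0528 at 4 weeks. Itga5 over Itgb1 was 0.298 to 0.418 at P5 and 0.417 to 0.446 at 4 weeks, with a small overlap. The ratios of Itga9, Itga2 and Itga10 to Itgb1 overlapped too, and Itga9 over Itgb1 in P5 replicate 1, at 0.127, was above the 4-week range of 0.0995 to 0.118.

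**Figure D4:**
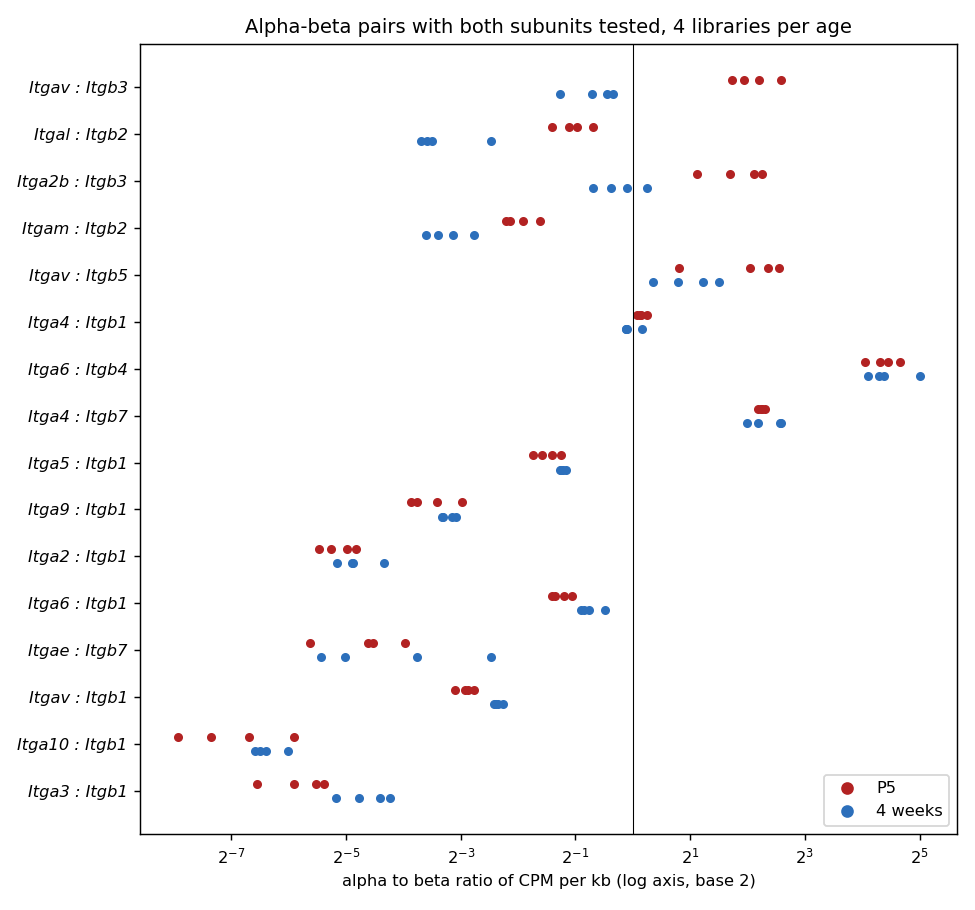
Ratio of alpha to beta level per kb (log axis) in each library for the pairs with both chains tested, P5 above 4 weeks in each row. The ages do not overlap in 7 pairs, and the ratios of Itgav to Itgb3 and of Itgal to Itgb2 differ most.

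Intron reads gave a second count from the same libraries and share their cells with the exon reads; which RNA they came from was not tested. With them 27 members were tested, 5 were higher at P5 and 3 lower, and 17.9% of all 13180 genes tested passed in either direction. Itgal (log2 fold change 1.93), Itgam (1.42), Itgb2 (1.02), Itga4 (0.75) and Itgb1 (0.72) were again higher, and Itgb3 (-2.37), Itga2b (-0.81) and Icam2 (-0.43) were lower. Itgb7 and Cd44 did not pass in intron reads, at 0.54 and 0.34 with adjusted p of 0.197 and 0.14.

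The wider adhesion machinery was read from 5 lists of 115 genes that do not include the members. Of 93 tested, 17 were higher at P5, 9 were lower and 67 did not pass, with a median log2 fold change of 0.11, against 7.99% and 8.55% of all genes. Among 26 regulators of inside-out activation, 23 were tested, with 4 higher and 2 lower (median 0.05). Sipa1l1, which switches off the GTPase Rap1, was lower at P5, with 116 ± 17.2 CPM at P5 and 227 ± 39.4 CPM at 4 weeks (log2 fold change -0.97, adjusted p = 0.000172 with edgeR). Fyb, an adaptor that carries Rap1 signals to integrins, was higher, with 104 ± 32 CPM at P5 and 54.4 ± 7.82 CPM at 4 weeks (0.94, adjusted p = 0.00309). Cyth1, a regulator of beta2 adhesion, was lower, with 41.7 CPM at P5 and 68.2 CPM at 4 weeks (-0.71, adjusted p = 0.0065), and did not pass among libraries with Y-linked reads alone (adjusted p = 0.061). Named after their values were seen, Raph1, Rassf5 and Rap1gap2 were the other 3 that were higher; of 21 alternatives, 3 ended the call of Raph1, 6 that of Rap1gap2 and 7 that of Rassf5, and intron reads turned Rassf5 to a log2 fold change of -0.075.

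Of 35 adhesion-complex genes, 32 were tested, with 6 higher and 4 lower (median 0.06). Tns3, a tensin that binds beta tails, was lower, with 73.0 ± 3.75 CPM at P5 and 132 ± 3.53 CPM at 4 weeks (log2 fold change -0.85, adjusted p = 8.06e-06 with edgeR). The related tensins Tns1 and Tns2, named after their values were seen, were also lower (-0.65 and -1.0). Tns1 overlapped between the ages and did not pass among libraries with Y-linked reads alone (adjusted p = 0.051 with edgeR). Tns2 did not pass on intron reads (log2 fold change -0.41, adjusted p = 0.228 with edgeR). Vav3, a guanine nucleotide exchange factor, was higher, with 134 ± 6.60 CPM at P5 and 88.7 ± 3.58 CPM at 4 weeks (0.60, adjusted p = 0.000142). Zyx, zyxin of mature adhesions, had 349 ± 23.3 CPM at P5 and 236 ± 27.2 CPM at 4 weeks (0.57, adjusted p = 0.000794). Vav3 did not pass on uniquely mapped reads (adjusted p = 0.165), nor Zyx on intron reads (adjusted p = 0.269).

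Other ligands and hyaluronan genes gave weaker results. Of 26 further ligand genes 14 were tested, with 2 higher and 0 lower (median 0.23): Tgfb1, whose latent form alphaV integrins bind, at 118 ± 7.17 CPM at P5 and 95.4 ± 4.7 CPM at 4 weeks, and Nid1, a basement-membrane protein, at 7.20 ± 5.98 CPM at P5 and 1.34 ± 1.25 CPM at 4 weeks. Their adjusted p were 0.0201 and 0.031 with edgeR; 8 of 21 alternatives for Tgfb1 and 7 of 20 for Nid1 ended the call, Nid1 among others without P5 replicate 2 (adjusted p = 0.0988). Jam3, a partner of Mac-1, did not pass on exon reads (adjusted p = 0.092 with edgeR). It was higher at P5 on intron reads (log2 fold change 0.57, adjusted p = 0.0155) and on exon plus intron reads (0.47, adjusted p = 0.0095). Of 16 genes around hyaluronan and CD44, 12 were tested, with 2 higher (Msn, Vcan) and 2 lower (Has3, Ezr; median 0.12). Msn, moesin, which ties CD44 to actin, had 449.8 CPM at P5 and 372 CPM at 4 weeks (adjusted p = 0.0171), and Has3, a hyaluronan synthase, had 14.9 CPM at P5 and 27.8 CPM at 4 weeks (adjusted p = 0.02). Msn lost its call in 4 of 21 alternatives, the replicate block (adjusted p = 0.0755) among them, and Has3 in 8. Vcan, a hyaluronan-binding proteoglycan, and Ezr, ezrin, had adjusted p of 0.0478 and 0.0445 and lost the call in 10 and 11 of 21 alternatives.

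All 12 tetraspanins and lateral partners were tested, with 3 higher and 1 lower (median 0.15). Cd53, a leukocyte tetraspanin, was higher, with 122 ± 11.7 CPM at P5 and 41.6 ± 9.47 CPM at 4 weeks (2.93-fold, adjusted p = 8.99e-06 with edgeR). Plaur, the urokinase receptor, had 12.3 ± 0.582 CPM at P5 and 6.43 ± 1.5 CPM at 4 weeks (adjusted p = 0.00967). Cd37, another leukocyte tetraspanin, was higher, with 93.8 CPM at P5 and 66.7 CPM at 4 weeks (adjusted p = 0.0141). Cd63, a tetraspanin of granules and endosomes, was lower, with 88.8 CPM at P5 and 118 CPM at 4 weeks (adjusted p = 0.00396). Cd63 and Cd37 did not pass on intron reads.

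**Figure D5:**
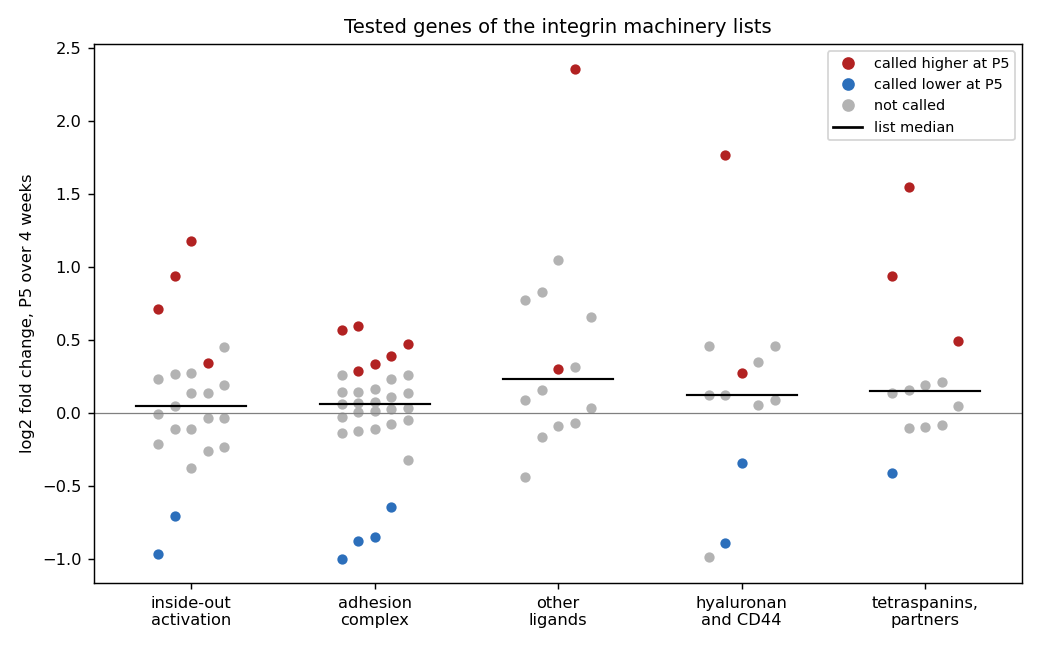
Log2 fold change of P5 over 4 weeks for each tested gene of the 5 machinery lists, coloured by whether it passed the test, with the list median as a line. The medians lie between 0.05 and 0.23, and genes past the threshold lie on both sides of 0 in 4 of the 5 lists.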

How the data were processed

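Exon, intron and total reads per gene were deposited by the authors as raw counts for each of 8 libraries. Per the labels' protocols, each library was made from 100 sorted cells with Nextera XT reagents, so strand was not kept. Per the submitters' processing notes the genome was mm10; an aligner or counting program is not given in the sources used here. A test of the ages with p-values was deposited too, per the file headers, from which only a count is quoted. Other deposited columns were not used.

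Total exon reads were used. Of 48835 rows, 23457 had an exon model. Rows of a gene listed on several contigs were summed (Itgae is on 2), which left 22050 genes. Dates stood in place of 24 gene names in 1 file, which were restored by row. The main test used R 4.3.3 and edgeR 4.0.16 (quasi-likelihood, TMM, filterByExpr) with age as the only term over 8 libraries. It kept 12235 genes with 99.82% of exon reads, and Benjamini-Hochberg adjusted p-values had a threshold of 0.05. Standard errors were derived from the F statistic. Positions and promoters are from RefSeq on GRCm38.p6, and overlaps are from exons of a GENCODE annotation of GRCm38. The test was also run on counts simulated from the fitted data with a common dispersion, and the outcome is not given here. Reads carry no molecular identifiers, so floors (3 counts per group) cover counting error only. Python 3.11.15, numpy 2.4.6, pandas 2.3.3 and matplotlib 3.10.9 were used.

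The members, lists and tests were chosen with earlier results of these data known. Named genes were all 32 members, the 3 genes with the smallest p in each machinery list, and every called gene where at most 5 were called. As alternatives, the fit had a block for replicate number, left out each library, or used other filters and scalings, DESeq2 1.42.0, limma-voom (limma 3.58.1), other read classes, and Y-linked reads as a covariate or as a selection. By the numbers in the titles, same-numbered libraries of the 2 ages did not deviate together. A shared batch under another numbering was not fitted.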

Additional observations from a re-analysis of the deposited data

Results flagged for a closer look

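In 70 groups of 4 libraries looked at, the highest or lowest library stood apart from the others of its age in 5. Chance flags about 1 in 20 such groups. Itgal in 4-week replicate 4 was 20.2 CPM, with the next 4-week library at 9.31 CPM. Tln1 in 4-week replicate 3 was 1384 CPM, with the next library at 1429 CPM. The summed monocyte and macrophage markers of P5 replicate 2 were 487 CPM, with the next P5 library at 229 CPM; C1qb had 29.1 CPM there. The summed B-cell markers of 4-week replicate 3 were 26.1 CPM, with the next at 21.7 CPM. The summed T-cell and NK-cell markers of P5 replicate 3 were 5.98 CPM, with the next P5 library at 11.5 CPM.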

How the results depend on the processing

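The 9 changed members kept their direction in all 189 values over 21 alternatives and their call in 186. The 3 lost calls were Itgb7 on intron reads and Cd44 on intron reads (adjusted p = 0.14) and on exon plus intron reads (adjusted p = 0.0722); the cause was not tested. Leaving out each library gave 7 members higher and 2 to 3 lower, 702 to 985 genes higher and 795 to 1069 lower of all genes, and 10 to 18 machinery genes higher and 6 to 8 lower; the 10 came without 4-week replicate 1. Same-numbered libraries of the 2 ages did not deviate together (r = -0.236 to -0.0309). Numbers were taken from the titles. Library numbers in the file headers put 4-week replicates 1 and 2 in the opposite order, and that order was not fitted. In that order r was 0.126 for P5 replicate 1 with 4-week replicate 2, and 0.0237 for P5 replicate 2 with 4-week replicate 1. Replicates 3 and 4 kept their partners, with r of -0.0955 and -0.0517. With the replicate number as a block, 577 genes were higher, against 977 without it, and 723 lower, against 1046; 9 machinery genes were higher, against 17, and the members stayed at 7 and 2. With Y-linked reads as a covariate, 628 genes were higher and 608 lower, and 11 machinery genes higher and 5 lower, against 9. With only libraries with Y-linked reads these were 619, 638, 11 and 5, and the log2 ratio difference of Itga5 to Itgb1 was -0.11, against -0.27.

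Directions turned in some fits, for members that did not pass and for 2 machinery genes that did, Cd37 and Rassf5. On exon plus intron reads and on intron reads the log2 fold changes were -0.21 and -0.20 for Itga2, 0.016 and 0.12 for Itgav, 0.13 and 0.23 for Itgae, 0.13 and 0.24 for Itgb4, and -0.063 and -0.42 for Icam1. Intron reads alone gave -0.24 for Itga5, -0.21 for Tln1, -0.015 for Cd37 and -0.075 for Rassf5. With the Y-linked covariate and with only such libraries they were -0.051 and -0.0502 for Itga2, -0.028 and -0.028 for Itga9, 0.30 and 0.30 for Itga10, 0.23 and 0.23 for Itgae, and 0.025 and 0.025 for Itgb4. Itgae was 0.071 with the block and 0.16 with voom. Leaving out libraries gave -0.091 to 0.27 for Itga2, -0.071 to 0.25 for Itga9, -0.51 to 0.23 for Itga10, -0.41 to 0.45 for Itgae, -0.16 to 0.065 for Itgb4 and -0.038 to 0.18 for Icam1. Some low genes gave no value under stricter filters or other read classes.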
